A study of Mus musculus with 3 samples.

Results

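The genes described here are 7 members of the MHC class II antigen presentation pathway: H2-Aa, H2-Ab1, H2-Eb1, Cd74, H2-DMa, H2-DMb1 and Ciita. They were taken by name from the 32285 genes of the count matrices, and all 7 were detected. They were followed across the myeloid-like, lymphoid-like, endothelial-like and epithelial-like cells of the adult mouse lacrimal gland (LG), the exocrine gland that secretes the watery part of the tear film. The cells came from C57BL/6J mice aged 2 months, with no treatment or engineered allele named in the labels. Droplet single-cell RNA-seq (10x Genomics) gave 1 female library and 2 male libraries, called female 1, male 1 and male 2, and each pooled the glands of 3 mice. The female library was prepared at another core facility and on another day than the male libraries, so sex cannot be told apart from facility and day. A single female library also leaves no test between the sexes. P-values of edgeR below rest on a spread between these 3 pools that each fit estimates over all its classes and partly from other genes.

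MHC class II molecules present peptides from endocytosed proteins to CD4+ T cells. H2-Aa and H2-Ab1 encode the alpha and beta chains of I-A, and H2-Eb1 encodes the beta chain of I-E, whose alpha chain is not made in C57BL/6 mice, so that I-E does not reach their cell surface. Cd74, the invariant chain, guards the peptide groove of new class II molecules on their way to endosomes, where H2-DMa and H2-DMb1, the chains of H2-M, exchange its remnant for a peptide. Ciita is the transcriptional coactivator on which class II transcription depends: it binds no DNA itself but is recruited to the X and Y boxes of class II promoters, which bind the RFX complex and NF-Y. Dendritic cells, macrophages and B cells are the usual class II-positive cells, and interferon gamma can induce class II in other types, such as endothelium and epithelium.

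In the GRCm38 annotation, 5 members lie in the class II region of chromosome 17: H2-DMa at chr17:34119541-34139101, H2-DMb1 at chr17:34153072-34160230, H2-Ab1 at chr17:34257689-34269419 and H2-Eb1 at chr17:34305867-34316674 on the plus strand, and H2-Aa at chr17:34282744-34287823 on the minus strand. Ciita lies at chr16:10480059-10528418 on the plus strand. The RefSeq promoter table for GRCm38.p6 (250 bases before to 50 after a gene's start) held 5 entries for 4 members, 2 of them for H2-DMa. The 100 bases from 130 to 31 bases before the start are shown for the members with an entry and for H2-DMb2, the close copy that neighbours H2-DMb1, because the box sequences through which class II genes are known to be regulated together lie in this stretch of class II promoters, although not every window below holds the letters searched. Capitals mark TGATTGG, the core letters of the Y box, and AACNNATG, letters of the X box:
H2-Aa, chr17:34287854-34287953, minus strand: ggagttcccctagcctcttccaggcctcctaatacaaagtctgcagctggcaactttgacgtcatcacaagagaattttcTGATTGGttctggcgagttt
H2-Eb1, chr17:34305737-34305836, plus strand: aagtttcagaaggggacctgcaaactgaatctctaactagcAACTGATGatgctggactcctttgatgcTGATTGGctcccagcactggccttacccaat
H2-DMb1, chr17:34153061-34153160, plus strand: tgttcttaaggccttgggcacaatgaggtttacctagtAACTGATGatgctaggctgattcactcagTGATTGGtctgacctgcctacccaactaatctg
H2-DMb2, chr17:34145119-34145218, plus strand: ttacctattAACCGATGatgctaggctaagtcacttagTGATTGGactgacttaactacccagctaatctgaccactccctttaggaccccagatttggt
H2-DMa, chr17:34122702-34122801, plus strand: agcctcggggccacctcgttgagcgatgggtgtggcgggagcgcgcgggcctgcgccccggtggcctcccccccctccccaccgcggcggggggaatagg
H2-DMa, chr17:34125388-34125487, plus strand: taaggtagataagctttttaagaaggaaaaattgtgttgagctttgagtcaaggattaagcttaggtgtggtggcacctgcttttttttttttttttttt

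Both motifs were searched on both strands of the whole promoter entries. The Y box letters were in 7.82% of 32851 promoters and the X box letters in 8.86%, while X letters starting 20 to 35 bases before Y letters were in 13 promoters, or 0.0396%. Of those 13, 5 belong to class II genes: the X letters start 29 bases before the Y letters in H2-DMb1 and H2-DMb2, 28 bases before them in H2-Eb1 and H2-Eb2, and 26 bases before them in H2-Ob. H2-Aa holds the Y letters 50 bases before its start without the X letters as spelled here, and neither entry of H2-DMa holds either motif. The letters describe these windows only.

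The matrices held 9737, 6422 and 6899 called cells in female 1, male 1 and male 2, of which 7652, 5295 and 5397 passed the filters on UMIs (unique molecular identifiers, 1 per captured RNA molecule), genes, mitochondrial share and doublets. The kept cells held 55390678, 37641576 and 41269825 UMIs, with medians of 3252, 1884 and 1788 per cell. Genes for tear products took 66.5%, 83.2% and 86.0% of the UMIs, so levels are given as CPM, here the UMIs of a gene per 1000000 UMIs outside tear-product and mitochondrial genes. The median cell held 2102, 794 and 681 such UMIs. Pairs of libraries shared 8 to 13 cell barcodes. The cells were clustered without the members and named from their markers: the myeloid list summed to 11517 to 11857 CPM in myeloid-like cells and to 29.0 to 71.0 in endothelial-like and epithelial-like cells. It summed to 1214 to 1680 in lymphoid-like cells, where most of it came from Tyrobp and Fcer1g, adaptor genes that NK cells also use.

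Class II RNA lay almost entirely in myeloid-like cells. Myeloid-like cells (1531, 951 and 862 cells) were 20.0%, 18.0% and 16.0% of cells and held 97.5% of the 227315 member UMIs in kept cells, from 92.2% for Ciita to 97.8% for H2-Aa. The 7 members summed to 41079, 41133 and 40022 CPM in myeloid-like cells, 40745 ± 627 (SD, n = 3 libraries). They summed to 371 ± 253 in lymphoid-like, 374 ± 211 in endothelial-like and 250 ± 157 in epithelial-like cells. The mean in myeloid-like cells was 110 times the mean in lymphoid-like, 109 times that in endothelial-like and 163 times that in epithelial-like cells. The highest myeloid-like library was 1.03 times the lowest, whereas that ratio was 3.24 in lymphoid-like, 2.82 in endothelial-like and 3.05 in epithelial-like cells.

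Among the chain genes, H2-Aa stood at 8447, 7539 and 7260 CPM in myeloid-like cells, in the order female 1, male 1, male 2 kept throughout. H2-Ab1 stood at 7385, 6952 and 6728 CPM, and H2-Eb1 at 7955, 7175 and 7009. All 3 chain genes were thus highest in the female library and lowest in male 2, with the highest library 1.10 to 1.16 times the lowest. H2-Eb1 RNA was thus present in these cells although the strain shows no I-E at the surface. Cd74, at 16338, 18492 and 18168 CPM, was instead lowest in the female library. The genes of H2-M were at 515, 480 and 428 CPM for H2-DMa and at 340, 438 and 368 for H2-DMb1. Ciita was at 98.6, 56.0 and 61.5 CPM, the female library lying above both male libraries.

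**Figure D1:**
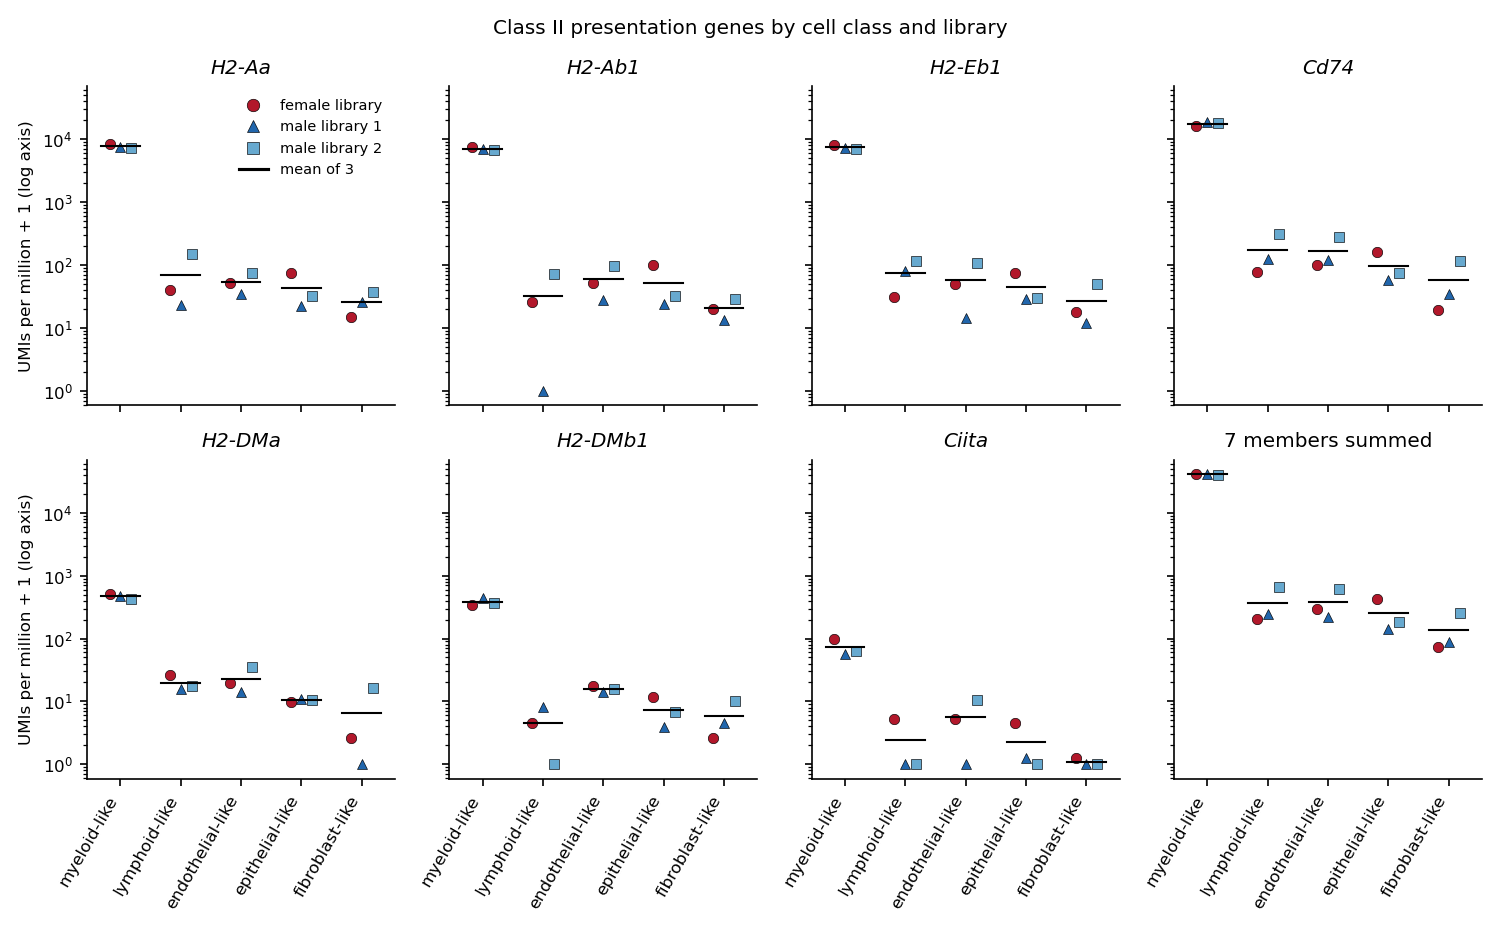
CPM plus 1 on a log axis for the 7 members summed and for each member in 5 cell classes, with 1 point per library and a bar at their mean. In each panel the 3 myeloid-like points lie far above those of the other classes, whose libraries spread and overlap.

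Outside the myeloid class the same genes were far lower, and the libraries disagreed. In lymphoid-like cells Cd74 was at 77.4, 124 and 315 CPM and H2-Aa at 39.1, 21.8 and 147. In endothelial-like cells Cd74 was at 100, 119 and 280 CPM and H2-Aa at 50.8, 33.0 and 72.5. In epithelial-like cells Cd74 was at 162, 56.1 and 73.0 CPM and H2-Aa at 74.2, 21.7 and 31.7. Male 2 was thus highest in lymphoid-like and endothelial-like cells and female 1 in epithelial-like cells. H2-DMa was at 25.2, 14.5 and 16.3 CPM in lymphoid-like, 18.7, 13.2 and 33.8 in endothelial-like and 8.71, 9.91 and 9.69 in epithelial-like cells. H2-DMb1 was at 3.48, 7.27 and 0 CPM in lymphoid-like, 16.3, 13.2 and 14.5 in endothelial-like and 10.6, 2.87 and 5.76 in epithelial-like cells. Ciita rested on few UMIs outside myeloid-like cells, with 4.35, 0 and 0 CPM in lymphoid-like, 4.23, 0 and 9.67 in endothelial-like and 3.49, 0.261 and 0 in epithelial-like cells.

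All 7 members were higher in myeloid-like cells in each of the 3 comparisons made by edgeR's quasi-likelihood test on UMIs summed per library and class. Against lymphoid-like cells the log2 fold changes ran from 4.77 (SE 0.39) for H2-DMa to 8.47 (SE 0.55) for H2-Ab1, where 15.8% of the 9884 genes tested were called higher in myeloid-like cells. Against endothelial-like cells they ran from 5.18 (SE 0.38) for H2-DMa to 7.92 (SE 0.50) for H2-Aa, with 22.9% of genes called. Against epithelial-like cells they ran from 6.21 (SE 0.34) for H2-DMa to 8.12 (SE 0.47) for H2-Aa, with 27.4% of genes called. The highest adjusted p of the 21 values was 1.3e-05, for Ciita against lymphoid-like cells, while the median log2 fold change over all genes was 0.05, 0.06 and -0.11. No library overlapped between the myeloid class and another for any member.

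Within the myeloid class nearly every cell carried the RNA. The 7 members made up a median of 4.27%, 4.18% and 4.20% of a myeloid-like cell's UMIs outside tear-product and mitochondrial genes, and only 49 of 3344 cells held no member UMI. After thinning each cell to 300 such UMIs, 97.8%, 97.7% and 96.0% of myeloid-like cells had a member UMI. Fibroblast-like cells, which are not expected to make class II, gave 2.27%, 1.75% and 1.53%. The median depth before thinning was 2479, 857 and 729.5 such UMIs in myeloid-like and 2244, 797.5 and 667 in fibroblast-like cells. Without thinning the shares were 99.5%, 98.2% and 97.1% in myeloid-like and 12.3%, 3.62% and 4.75% in fibroblast-like cells.

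Among the myeloid-like subsets the summed level varied little: the highest named subset was 1.67, 1.73 and 1.83 times the lowest. M1-like macrophages, the most numerous (799, 366 and 304 cells), were at 42339, 47437 and 49034 CPM, and Cd209a dendritic-like cells (45, 154 and 134 cells) at 42534, 44034 and 41964. Trem2-high macrophage-like cells were lower at 32214, 29471 and 27078 CPM, as were the few monocyte-like cells (9, 55 and 65) at 31699, 29254 and 32245. In each library both lay under the M1-like and Cd209a dendritic-like cells. Macrophage-like cells of no named kind were at 50123, 50731 and 44218 CPM and M2 resident macrophage-like cells at 46403, 30412 and 26835, the female library standing above both males in the latter. Proliferating macrophage-like cells were at 30074, 40212 and 38434 and proliferating dendritic-like cells at 44526, 40272 and 38045. The naming of macrophage-like subsets depended on the integration. With it 219, 121 and 107 cells were named Trem2-high macrophage-like, and without it 26, 178 and 187.

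**Figure D2:**
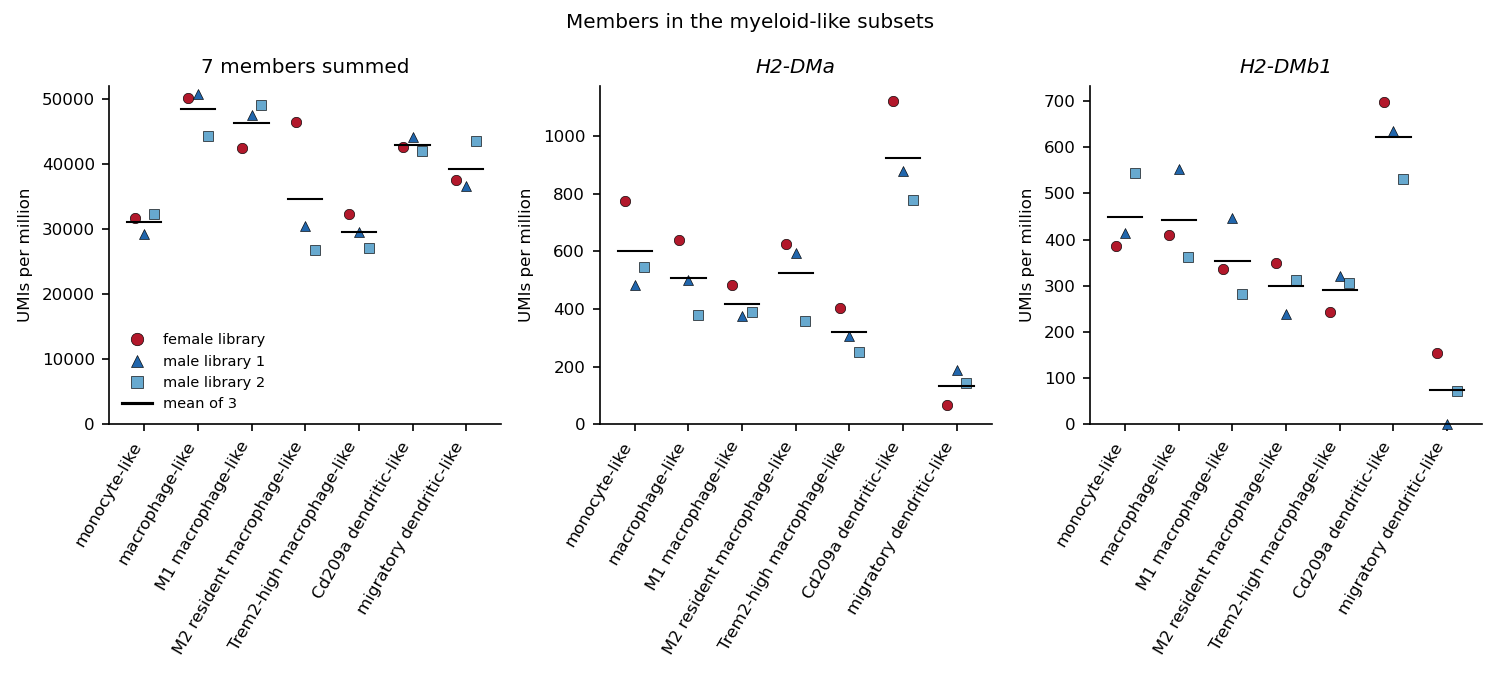
CPM (linear axes) of the 7 members summed, of H2-DMa and of H2-DMb1 in 7 myeloid-like subsets, with 1 point per library and a bar at their mean. Trem2-high and monocyte-like cells lie at the low end of the summed level, and migratory dendritic-like cells lie below Cd209a dendritic-like cells for both single genes.

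Between dendritic-like and macrophage-like cells 1 of the 7 members was called, H2-DMa, a gene of peptide exchange, and no chain gene was. That count is near the share of all genes called higher, given below. Proliferating cells of both kinds were left out of this comparison, as were monocyte-like cells. The Cd209a and migratory dendritic-like cells together (64, 191 and 176 cells) summed to 40983, 42801 and 42298 CPM for the 7 members and the macrophage-like cells (1329, 623 and 526 cells) to 41628, 41882 and 40851, so the groups overlapped. H2-DMa was at 792, 765 and 636 CPM in dendritic-like and 499, 388 and 346 in macrophage-like cells, without overlap. The Cd209a cells carried the dendritic-like value, at 1121, 878 and 777 CPM. The migratory cells, at 69.0, 188 and 143 CPM, lay below the macrophage-like cells in each library. By edgeR's quasi-likelihood test H2-DMa was 1.62-fold higher in dendritic-like cells (log2 0.69, SE 0.19, adjusted p = 0.0044), the only one of the 7 members called, where 11.7% of 2541 genes were called higher. No member was called without male 1, with no filter on low counts or with no library term. The log2 differences of the other 6 members lay between -0.28 for Cd74 (adjusted p = 0.12) and 0.38 for H2-DMb1 (adjusted p = 0.19).

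Accessory genes of the pathway differed more between the same cells. Of the 13 accessory genes listed, 7 were tested, and 3 were higher and 4 lower in dendritic-like cells, where 11.7% of all genes were higher and 16.6% lower, with a median log2 difference of -0.89 beside -0.02 over all genes. H2-DMb2, the copy next to H2-DMb1, was at 178, 98.7 and 159 CPM in dendritic-like and 2.62, 3.59 and 4.67 in macrophage-like cells (log2 5.46). H2-Oa, a chain of H2-O, which restrains H2-M, was at 162, 160 and 143 against 20.7, 12.6 and 11.7 (log2 3.06). Both H2-M-related genes were separate in every library. Ifi30, the thiol reductase that opens disulphide bonds of antigens, was at 1541, 1209 and 1216 CPM against 210, 413 and 437 (log2 1.82). Lgmn, the endosomal asparagine endopeptidase, went the other way at 70.0, 98.7 and 95.4 against 756, 749 and 898 (log2 -3.33), as did Ctss, the protease that trims the invariant chain, at 808, 685 and 660 against 3007, 2190 and 2440 (log2 -1.96), and Ctsl (log2 -1.22). The fourth lower gene was Cd86, a costimulatory ligand, named after its values were seen. Reads of H2-DMb1 and H2-DMb2 are alike enough that the authors' counting could have divided or dropped some of them, so the values of these 2 genes are uncertain.

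Migratory dendritic-like cells, the subset marked by Ccr7 and Fscn1, had lower values of H2-DMa, H2-DMb1 and H2-Ab1 and higher values of H2-Eb1 than Cd209a dendritic-like cells. H2-DMa was at 69.0, 188 and 143 CPM in them (4, 5 and 4 UMIs in 19, 37 and 42 cells) and at 1121, 878 and 777 in Cd209a dendritic-like cells. H2-DMb1 was at 155, 0 and 71.6 CPM against 698, 635 and 531, and H2-Ab1 at 4879, 4968 and 5622 against 8896, 8523 and 8002. H2-Eb1 went the other way, at 8655, 7716 and 9059 CPM against 8104, 7505 and 7175. Cd74, at 14966, 15996 and 19980 CPM, and H2-Aa, at 8759, 7452 and 8558, stayed within the range of the other named subsets, whose means ran from 11903 to 21284 for Cd74 and from 5987 to 9041 for H2-Aa. Ciita was at 86.2, 188 and 35.8. The contrast between these subsets was seen in the values and was not tested.

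Endothelial-like cells held little class II RNA, at its highest level in venous-like cells. Over the whole class (950, 477 and 357 cells), none of the 7 members was called different from epithelial-like cells by edgeR's quasi-likelihood test, where 22.5% of genes were called higher in endothelial-like cells. The genes of H2-M came closest, with log2 differences of 1.03 (SE 0.43, adjusted p = 0.061) for H2-DMa and 1.10 (SE 0.46, adjusted p = 0.056) for H2-DMb1, the 2 members under an unadjusted p of 0.05, and DESeq2 also called 0. With the acinar-like cluster 5 described below left out, 4 members were higher, Cd74 by log2 1.04 (adjusted p = 0.02) and H2-DMa, H2-DMb1 and Ciita by log2 1.15, 1.16 and 2.88. Without female 1, 6 members were higher, all but H2-DMa.

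Against fibroblast-like cells, 4 of the 7 members were higher in endothelial-like cells, where 15.2% of genes were. Fibroblast-like cells held Cd74 at 18.4, 34.1 and 115 CPM, H2-DMa at 1.62, 0 and 15.2 and H2-DMb1 at 1.62, 3.59 and 9.11. In each library these values were below those of endothelial-like cells. The log2 fold changes by edgeR's quasi-likelihood test were 1.72 (SE 0.54, adjusted p = 0.019) for Cd74, 2.78 (SE 0.62, adjusted p = 0.0016) for H2-DMa and 2.44 (SE 0.63, adjusted p = 0.0055) for H2-DMb1. Ciita was the other, with 9 UMIs in endothelial-like cells and 1 in fibroblast-like cells, a ratio of 19.1 in CPM with an exact 95% counting interval of 2.64 to 836. The 3 chain genes had log2 differences of 1.15 to 1.42 and adjusted p of 0.058 to 0.13. In male 2, 1 fibroblast-like cell held 56 of the class's 83 member UMIs. Without female 1 the calls were Cd74, H2-DMa and H2-Ab1. With no library term 2 members were called, and with free RNA subtracted 1.

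Within the endothelium, venous-like cells held 286 of the 675 member UMIs. The members summed to 696, 476 and 1328 CPM in venous-like cells (150, 102 and 86 cells), to 153, 97.3 and 137 in capillary-like cells (354, 190 and 123 cells) and to 158, 120 and 1856 in arteriolar-like cells (74, 17 and 25 cells). The high arteriolar-like value of male 2 came from 1 cell with 18 member UMIs, and endothelial-like cells of no named kind were at 279, 216 and 441. Venous-like cells stood above capillary-like cells in all 3 libraries. Cd74 was at 298, 282 and 632 CPM in venous-like and 45.5, 61.9 and 0 in capillary-like cells, and H2-Eb1 at 117, 35.2 and 253 against 21.2, 0 and 45.7. By edgeR's quasi-likelihood test Cd74 was 8.19-fold (log2 3.03, SE 0.31, adjusted p = 1.9e-21) and H2-Eb1 6.40-fold higher (log2 2.68, SE 0.53, adjusted p = 3.9e-06). In this fit the spread was in effect the one shared over genes. Its p-values therefore do not measure each gene's own spread between the 3 pools. Cd74 and H2-Eb1 were the 2 members that passed the filter on low counts, in a comparison where 17.3% of 1671 genes were called higher in venous-like cells. Cd74 had 84, 16 and 30 UMIs in venous-like and 30, 7 and 0 in capillary-like cells, and H2-Eb1 had 33, 2 and 12 against 14, 0 and 3. Both passed the filter largely through venous-like cells, so 2 called of 2 tested says nothing about the 7 members as a set. DESeq2 gave an adjusted p of 0.11 for Cd74, 0.0046 for H2-Eb1 and 0.032 for H2-Aa. Without male 2, Cd74 and H2-Aa were called. Without male 1, 4 members were called: Cd74, H2-Aa, H2-Ab1 and H2-Eb1. After the counts expected from free RNA were subtracted, no member passed the filter on low counts, so none could be tested.

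The levels of 7 myeloid genes (C1qa, C1qb, C1qc, Lyz2, Tyrobp, Fcer1g and Csf1r) were low in each of these classes: they summed to 17.7, 35.2 and 21.1 CPM in venous-like cells (5, 2 and 1 UMIs), 28.8, 44.2 and 0 in capillary-like and 32.4, 23.3 and 51.6 in fibroblast-like cells. Their part and that of free RNA in the venous-like level was not tested. At 300 UMIs a member was found in 14.0%, 15.1% and 26.4% of venous-like cells (exact 95% intervals 8.88 to 20.6%, 8.30 to 24.5% and 16.7 to 38.1%). The share was 4.80%, 2.44% and 4.85% in capillary-like cells, nearer to the fibroblast-like shares given above. Intervals cover counting error only. No venous-like cell held more than 11 member UMIs.

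**Figure D3:**
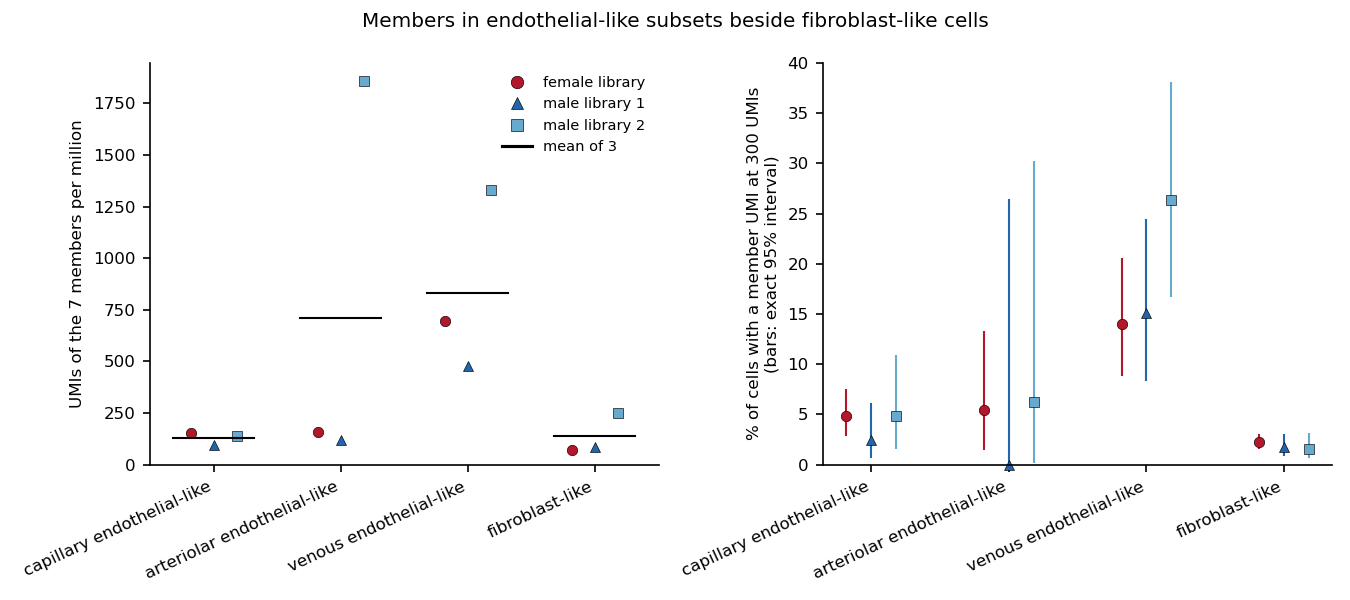
Left, CPM of the 7 members summed in endothelial-like subsets and fibroblast-like cells, with 1 point per library and a bar at their mean. Right, the percent of cells with a member UMI after thinning to 300 UMIs, with exact 95% intervals. Venous-like cells lie above capillary-like and fibroblast-like cells in every library, and the high arteriolar-like point of male 2 rests on 1 cell.

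Lymphoid-like cells held 235, 34 and 122 member UMIs, in 143, 16 and 25 cells. Of the 7 members, H2-DMa was called higher than in epithelial-like cells by edgeR's quasi-likelihood test (log2 1.43, SE 0.46, adjusted p = 0.017), where 19.3% of genes were called higher. It was higher in every library, at 25.2, 14.5 and 16.3 against 8.71, 9.91 and 9.69 CPM. It was not called by DESeq2 or with no library term. With free RNA subtracted from the lymphoid-like side only (log2 -0.081), it was not called either. It was also not called without female 1, when H2-Aa, H2-Eb1 and Cd74 were. The members summed to 204, 247 and 663 CPM in lymphoid-like cells, while free RNA would add 1082, 1410 and 1219 if all their tear-product UMIs were free RNA. Without cluster 5, 5 members were called: H2-Aa, H2-Eb1, Cd74, H2-DMa and Ciita. At 300 UMIs a member was found in 5.62%, 3.92% and 3.93% of lymphoid-like cells, above the fibroblast-like shares. Cells with 10 or more member UMIs (3, 1 and 4 cells) held 20.0%, 38.2% and 63.1% of the lymphoid-like member UMIs. In male 2, 1 NK-like cell held 36 of the 40 member UMIs of its subset, and in male 1, 1 gamma delta T-like cell held 13 of 15.

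Among lymphoid-like subsets the innate lymphoid-like cells (ILC-like), a type that can present antigen, were at 212, 197 and 44.5 CPM for the members summed. The naming of the male ILC-like cells depended on the integration: without it 297, 0 and 1 cells were named ILC-like. The same held for other subsets. Without integration 87, 0 and 0 cells were named gamma delta T-like and 86, 1 and 5 cytotoxic T-like. With it they were 99, 57 and 50 and 140, 47 and 114. T-like cells were at 219, 564 and 519 CPM and cytotoxic T-like cells at 221, 0 and 102. NK-like cells were at 75.8, 209 and 1947 CPM and gamma delta T-like cells at 200, 638 and 731. These sums rest on few UMIs: 64, 7 and 1 in ILC-like and 11, 5 and 19 in T-like cells, of which 1 cell held 4 in male 1 and 1 cell held 15 in male 2. The order of these 5 subsets differed between the libraries. Lymphoid-like cells of no named kind were at 679, 216 and 1581 CPM (57, 1 and 41 UMIs). Only Cd74 passed the filter on low counts in the comparison of ILC-like with the other lymphoid-like cells, and it was not called by edgeR's quasi-likelihood test (log2 -0.10, SE 0.41, adjusted p = 0.92). The call count was 0 of 1 member, also at an unadjusted p of 0.05, where 11.3% of 1716 genes were called higher.

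Antibody-secreting cells, which lose class II as they mature, were seen as 10 plasma-like cells, 6 in male 1 and 4 in male 2. They were set apart because each held at least 516 immunoglobulin UMIs, while no other cell held more than 13. Cd74 was in all 10, with 3 to 13 UMIs per cell and 74 in all. H2-Ab1 was in 4 of them, H2-Eb1 in 2, H2-Aa, H2-DMa and H2-DMb1 in 1 each, and Ciita in none. In male 1 the 6 cells held 42 Cd74 UMIs and no UMI of another member.

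In epithelial-like cells the female library stood apart, above all through 1 acinar-like cluster. The members summed to 759, 144 and 157 CPM in acinar-like, 184, 243 and 356 in duct-like, 477, 94.4 and 191 in Ltf+-like and 122, 122 and 327 in myoepithelial-like cells. In female Ltf+-like cells, 3 cells held 202 of the 246 member UMIs. Female 1 was highest in acinar-like and Ltf+-like cells and lowest in duct-like cells.

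Acinar-like cluster 5 held 371, 380 and 390 cells and 1489, 77 and 34 member UMIs, which is 10338, 396 and 186 CPM. At 300 UMIs a member was found in 58.8% of its female cells (exact 95% interval 52.4 to 65.0%) and in 4.00% and 3.86% of its male cells; 121, 105 and 131 cells were too shallow to enter. Ciita was at 125, 5.14 and 0 CPM, the female value (18 UMIs) lying above that of female myeloid-like cells. Its 47 female cells with 10 or more member UMIs held 57.5% of them. The 7 myeloid genes named above moved with this result, at 1826, 97.6 and 126 CPM, and the female cells were shallower, with medians of 1406, 3211 and 3078.5 UMIs. In the 258 female cells with no UMI of the myeloid genes the members still summed to 6848 CPM. If all tear-product UMIs of the cluster were free RNA, it would add 4798, 4478 and 3680 CPM of the members, which is below the female level and above both male levels. The part of the myeloid genes, of remaining doublets, of free RNA and of depth in the female level was not tested, nor whether these female cells are of the type that the cluster's markers name. Without the cluster, epithelial-like cells were at 219, 128 and 179 CPM and acinar-like cells at 236, 125 and 155. The female library was above both males in 6 of the 7 acinar-like clusters, cluster 20 being the exception. The levels were 838, 130 and 144 CPM in cluster 11 and 1098, 493 and 225 in cluster 17. In cluster 2, with 323, 207 and 313 member UMIs, female 1 was close to male 2, at 177, 115 and 173 CPM. Cluster 27 rests on 9, 1 and 1 UMIs.

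**Figure D4:**
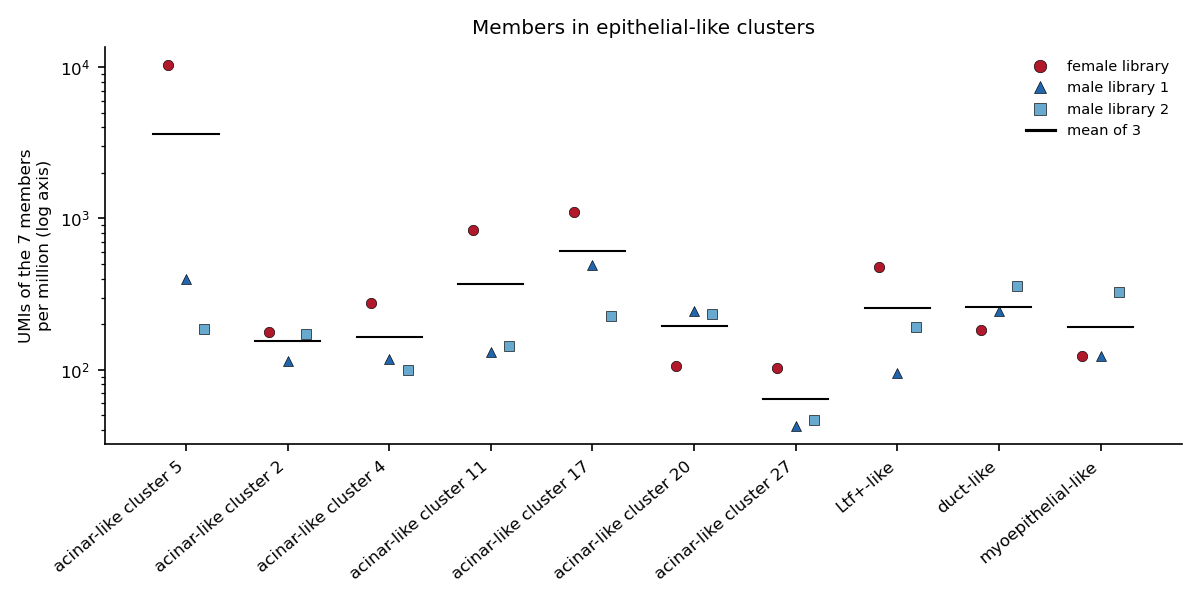
CPM of the 7 members summed (log axis) in the clusters and subsets of epithelial-like cells, with 1 point per library and a bar at their mean. Acinar-like cluster 5 of the female library stands at 10338 CPM, while its male points and the other clusters lie at or below 1098.

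Between ductal and acinar epithelium 1 of the 5 members tested was higher, H2-DMb1. That count is no larger than the share of all genes called higher. Class I genes are described below. H2-DMb1 was at 13.3, 4.95 and 14.7 CPM in duct-like and Ltf+-like cells together and at 4.32, 1.09 and 1.36 in acinar-like cells, higher in each library. The acinar-like values rest on 12, 3 and 4 UMIs. Of the 5 members tested by edgeR's quasi-likelihood test, it was the only one higher (log2 2.02, SE 0.52, adjusted p = 0.0089), where 24.1% of 9222 genes were called higher; without male 2 it was not called. H2-Aa (log2 -1.31, adjusted p = 0.041) and H2-Ab1 (log2 -1.25, adjusted p = 0.047) were lower, where 22.0% of genes were. Neither was called without cluster 5, without female 1 or by DESeq2, and with total UMIs in place of TMM factors both became higher (log2 1.15 and 1.23). That scaling moved the median log2 difference over all genes from 0.02 to 2.38 in this comparison.

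The make-up of the class II signal differed between classes. H2-DMa, H2-DMb1 and Ciita together were 2.32%, 2.37% and 2.14% of the member UMIs of myeloid-like cells. They were 13.5%, 12.1% and 9.45% in endothelial-like cells (65 of 482, 8 of 66 and 12 of 127 UMIs) and 8.12%, 10.1% and 8.29% in epithelial-like cells without cluster 5. Both classes lay above the myeloid-like share in every library. Female cluster 5 was at 2.48% (exact 95% interval 1.76 to 3.41%), within its interval of the myeloid-like share. Free RNA, taken from uncalled barcodes of 10 to 100 UMIs, was at 5.26%, 2.33% and 5.48%, or 3.96% pooled (interval 1.99 to 6.97%). Fibroblast-like cells were at 4.91%, 4.17% and 9.64% and lymphoid-like cells at 16.2%, 8.82% and 2.46%, from 3 UMIs in each male library of the latter.

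**Figure D5:**
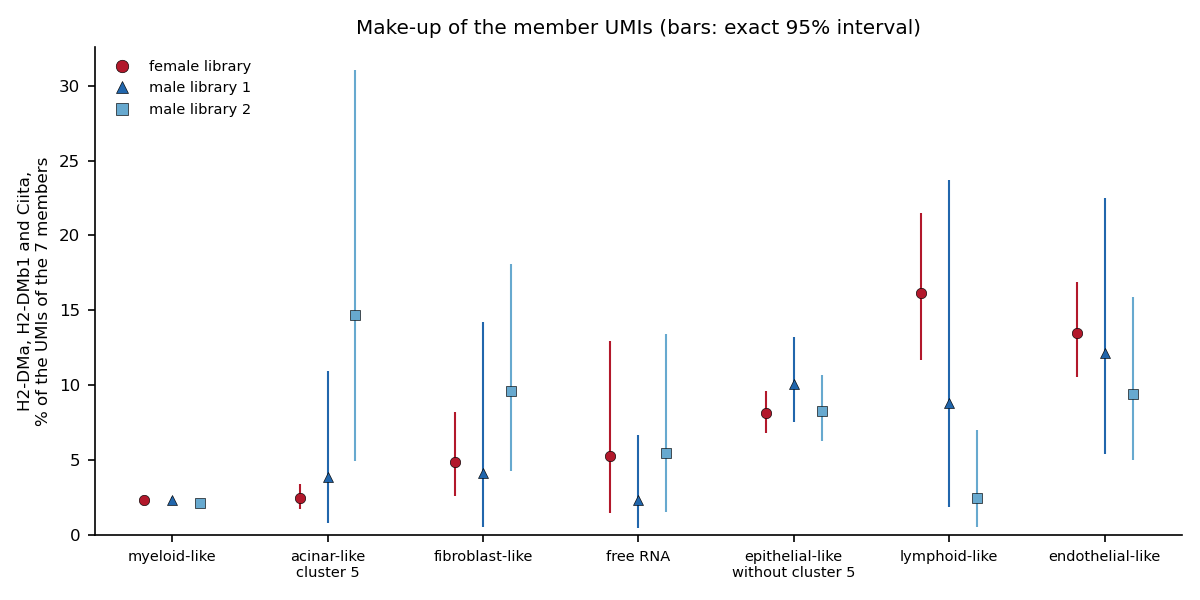
H2-DMa, H2-DMb1 and Ciita as a percent of the UMIs of the 7 members, per class and library, with exact 95% intervals. Myeloid-like cells and female cluster 5 lie between 2.14% and 2.48%, and endothelial-like cells and epithelial-like cells without cluster 5 lie at 8.12% or more.

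Free RNA itself held the members at 6009, 4057 and 3158 CPM, with 2.24, 4.16 and 3.84 member UMIs for each UMI of the 7 myeloid genes. These levels were far below those of myeloid-like cells. They were above the sums of lymphoid-like, endothelial-like, epithelial-like and fibroblast-like cells in each library. If all tear-product UMIs of venous-like cells were free RNA, it would add 878, 1000 and 642 CPM of the members to them, and 591, 663 and 632 to fibroblast-like cells. The observed levels were below that figure in every fibroblast-like sum and in 2 of 3 venous-like sums, so the figure is too high for those. Barcodes of 2 to 50 UMIs gave the members at 7422, 4964 and 5088 CPM, and the figure was not recomputed from them.

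The rest of the pathway was followed through 4 lists. Of 13 class II accessory genes, 11 were tested between classes, and 9 were higher in myeloid-like than in lymphoid-like cells, 9 than in endothelial-like cells and 9 than in epithelial-like cells, with median log2 differences of 5.30, 6.01 and 6.43. Ctsl (log2 -1.92) and March8, a ubiquitin ligase (log2 -1.30), were lower in myeloid-like than in epithelial-like cells, where 29.2% of all genes were. Of 10 class II transcription factors, 3 were higher in myeloid-like than in lymphoid-like cells, 4 were higher and 2 lower than in endothelial-like cells, and 5 were higher than in epithelial-like cells. Of all genes, 15.8%, 22.9% and 27.4% were higher in these comparisons and 20.1% were lower than in endothelial-like cells, and the list's median log2 difference was 0.12, 0.63 and 0.55 beside 0.05, 0.06 and -0.11 over all genes. Spi1 (PU.1), the myeloid factor that was also among the markers, was at 316, 400 and 411 CPM in myeloid-like cells. Irf8 was also among the markers, those of a dendritic cell type. Both were called higher in all 3 comparisons, and these calls are not independent of the naming of the cells. The RFX genes Rfx5, Rfxap and Rfxank were in none of these calls, whereas Nfya, a chain of NF-Y, was higher in myeloid-like cells in all 3 comparisons (log2 1.32 against lymphoid-like cells). Against the other two classes Nfya was not among the 3 largest changes of its list and was named after its values were seen.

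Class I presentation genes and genes of the interferon gamma response followed another line. Against epithelial-like cells, 10 of 14 class I genes were higher in myeloid-like, 11 in lymphoid-like and 10 in endothelial-like cells, and 8 of 9 interferon gamma response genes were higher in each, where 27.4%, 19.3% and 22.5% of all genes were. The median log2 difference of the class I list was 1.49, 1.61 and 1.65 and that of the interferon gamma list 2.08, 2.00 and 1.81, beside -0.11, -0.22 and -0.08 over all genes. Calr, a chaperone of class I folding, was lower in all 3, where 29.2%, 26.3% and 24.9% of all genes were. Between endothelial-like and fibroblast-like cells 3 of 14 class I genes were higher and 2 lower, shares near those of all genes (15.2% higher and 18.5% lower). The higher ones were Nlrc5, the class I coactivator related to Ciita (log2 2.17), and the immunoproteasome subunits Psmb9 (0.85) and Psmb8 (0.60). Of 9 interferon gamma response genes, 0 were higher there and 1, Ifngr1, was lower. In myeloid-like cells 2 of the 9 were higher and 4 lower than in endothelial-like cells, where 22.9% and 20.1% of all genes were. Against lymphoid-like cells 1 was higher and 3 were lower, where 15.8% and 8.88% of all genes were. In venous-like over capillary-like cells no class I gene of 9 tested was higher and 2, Psmb10 (log2 -0.91) and Psmb9 (-0.88), were lower, where 17.3% of all genes were higher and 14.2% lower. Of 5 interferon gamma response genes tested there, 2 were higher and none lower, with a median log2 difference of 0.42 beside -0.02 over all genes. Irf1, the interferon-induced factor, was at 735, 775 and 422 CPM in venous-like and 102, 177 and 137 in capillary-like cells (log2 2.63, adjusted p = 6.4e-22 by edgeR's quasi-likelihood test), and Jak1, a kinase of the interferon receptors, was higher by log2 1.03.

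In duct-like and Ltf+-like over acinar-like cells, 8 of 13 class I genes tested were higher and 1 was lower, where 24.1% of all genes were higher and 22.0% lower. Psmb8 was at 113, 126 and 159 CPM against 8.99, 5.82 and 14.6 (log2 3.57), Psmb10 was higher by log2 2.66, and Calr was lower (-1.26). Of 8 class II transcription factors tested there, 1, Creb1, was higher and 2, Irf8 and the RFX gene Rfxap, were lower. Of 8 interferon gamma response genes tested, 3 were higher and 1 was lower. The interferon-inducible Gbp2 (log2 3.75) and Irf1 (2.11), and also Ifngr1 (1.14), were higher and Jak1 was lower (-0.87). The list's median was 1.01 for class I and 0.99 for the interferon gamma response, beside 0.02 over all genes. In ILC-like over other lymphoid-like cells, Ifng (log2 -6.02) and Irf8 (-5.62) were lower and Jak2 (2.54) was higher, where 10.1% of all genes were lower and 11.3% higher.

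The gene whose level ran most like that of the members was Spi1, with a Pearson r of 0.97 between log2(CPM + 20) and the members' mean of the same over 60 points, 20 named subsets in 3 libraries. Cd86 (0.95), Wfdc17, Cd83 and Pld4 (0.94 each), and Ly86, Aif1, Ptafr, Alox5ap and Il1b (0.93 each) came next among 11095 genes, and each member's own r was 0.91 to 0.99. The points share libraries and depth and fall into myeloid-like and other subsets, so r mostly contrasts these, and it is a description only.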

How the data were processed

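The authors deposited raw UMI counts per gene and cell, made with Cell Ranger (version 6.1.2 and build mm10 in the submitters' processing notes), before their own removal of doublets and free RNA. Here cells were kept above 500 UMIs and 200 genes and below a mitochondrial share of 15%, doublets were removed by score at 0.8% per 1000 barcodes, and no free RNA was removed. Cells were normalised, integrated and clustered (SCTransform and Seurat 5.3.0, 3000 features, 30 dimensions, resolution 1), leaving 325 genes out of the features. These were the members, the H2 family, and pathway, tear-product and mitochondrial genes that were not markers. Genes of ribosomal proteins and haemoglobins, Xist, Tsix and Y chromosome genes were also left out. Clusters were named from marker genes as "X-like"; cell types were rebuilt and may differ from the authors'. UMIs were summed per library and class and tested with edgeR 4.0.16 (quasi-likelihood test, TMM factors, filterByExpr, class plus library, Benjamini-Hochberg adjustment over all genes tested, threshold 0.05), with R 4.3.3 and Python 3.11.15. The test scripts were tested on simulated data. Named pathway genes are at most the 3 largest called changes per list, direction and comparison. Exceptions are Cd86 and Nfya, which the text marks, and the RFX genes, named as not called in the 3 myeloid comparisons. The members and lists were chosen with earlier results of these data known. Alternatives included DESeq2 1.42.0, other scalings, filters and classes, and leaving out each library.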

Additional observations from a re-analysis of the deposited data

Results flagged for a closer look

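Of 59 pairs of a comparison and a member, or the members summed, for which the female library was set beside both male libraries, 10 had the opposite direction in the female library and in both males; these differences were not tested. For lymphoid-like over epithelial-like cells the log2 difference of H2-Aa was -0.67 in the female library and 0.01 and 1.69 in the males, that of H2-Eb1 was -0.90 and 1.07 and 1.47, that of Cd74 was -0.90 and 0.92 and 1.85, and that of all members summed was -1.01 and 0.73 and 1.78. For endothelial-like over epithelial-like cells it was -0.41 and 0.35 and 0.84 for H2-Aa, -0.73 and 0.11 and 1.20 for H2-Ab1, -0.59 and 0.87 and 1.69 for Cd74, and -0.53 and 0.56 and 1.67 for all members summed. For duct-like and Ltf+-like over acinar-like cells it was -1.55 for Cd74 in the female library and 0.30 and 0.58 in the males. All 9 of these have the epithelial-like cells of the female library on one side, where acinar-like cluster 5 held 1489 of the 2966 member UMIs. The tenth, all members in dendritic-like over macrophage-like cells, was -0.023 against 0.03 and 0.05.

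Barcodes that were not called as cells held the members at 6009 CPM in female 1, 4057 in male 1 and 3158 in male 2. The 10 plasma-like cells held Cd74 at 3715 CPM. No comparison of the analysis reported used them, while an alternative put them back into the classes compared.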

How the results depend on the processing

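All 343 myeloid values, 3 comparisons of 7 members under the alternatives, were called higher, with log2 fold changes of 4.33 to 18.77. Of 907 values of single members, 804 stayed on the same side of the threshold, with the same direction where called. Uncalled values that changed direction are counted among these. The members called changed elsewhere, and where no cause is named it was not tested. Lymphoid-like over epithelial-like cells (1 member called) gave 4 with total UMIs in place of TMM, 0 by DESeq2 and 0 with no library term. This comparison gave 3 without cells holding a macrophage gene, 5 without cluster 5 and 1 to 3 leaving out libraries. With free RNA subtracted from the lymphoid-like side only it gave 0. Endothelial-like over epithelial-like cells (0 called) gave 7 with total UMIs, 2 without tear-product and mitochondrial genes, 2 with no filter on low counts, 1 with only these classes in the fit, 1 above 1000 UMIs per cell, 1 with 2 times as many doublets removed, 2 without integration, 4 without cluster 5 and 0 to 6 leaving out libraries. Endothelial-like over fibroblast-like cells (4 called) gave 7 with no filter, 2 with no library term, 1 with free RNA subtracted and 3 to 5 leaving out libraries. Dendritic-like over macrophage-like cells (1 called) gave 0 with no filter, 0 with no library term, 2 without integration and 0 to 1 leaving out libraries. Venous-like over capillary-like cells (2 called) gave 1 without tear-product and mitochondrial genes, 4 with no filter, 1 with only these classes, 1 above 1000 UMIs, 1 with more doublets removed, 1 without cells holding a macrophage gene, 0 with free RNA subtracted, 4 without integration and 2 to 4 leaving out libraries; each count of 1 or 0 covers all members that passed the filter on low counts there, so that no call was lost in a test, and of the 2 members only Cd74 by DESeq2 was tested and not called. Duct-like and Ltf+-like over acinar-like cells gave 5 higher with total UMIs (1 in the analysis reported) and 0 to 1 leaving out libraries. For the 2 lower members it gave 0 with total UMIs, 1 without tear-product and mitochondrial genes, 0 by DESeq2, 4 with no filter, 0 with no library term, 1 with only these classes, 0 with more doublets removed, 0 without cluster 5 and 0 to 3 leaving out libraries. ILC-like cells could not be refitted without integration, where the male libraries held 0 and 1 cells of that name.

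Total UMIs as the scale let tear-product RNA set the epithelial totals: the median log2 difference over all genes moved to 1.35, 1.17, 1.83 and 2.38 in the myeloid-like, lymphoid-like and endothelial-like over epithelial-like and the ductal over acinar comparisons, and to -0.37 and -0.29 in myeloid-like over endothelial-like and venous-like over capillary-like cells. The higher calls, as a share of all calls, moved from 48.4% to 88.4%, 42.3% to 89.0%, 47.5% to 95.2%, 52.3% to 99.1%, 53.3% to 31.7% and 54.9% to 35.1% in the same order, and from 41.4% to 51.9% in dendritic-like over macrophage-like cells. DESeq2 moved the venous-like share to 69.0%. With total UMIs, ductal over acinar log2 values became 1.15 for H2-Aa, 1.23 for H2-Ab1, 1.47 for H2-Eb1 and 1.77 for Cd74. Free RNA was subtracted from all classes but the epithelial-like cells and their subsets, so the ductal over acinar sums were unchanged. In comparisons with epithelial-like cells only the other class lost counts, and lower values there were built into that step. Subtraction also removes more than some classes hold. The log2 values over epithelial-like cells became -9.42 for H2-Aa, -9.44 for H2-Eb1, -10.54 for Cd74 and -0.081 for H2-DMa in lymphoid-like cells. In endothelial-like cells they became -9.41 for H2-Aa, -6.61 for H2-Ab1, -9.43 for H2-Eb1 and -10.53 for Cd74. Over all UMIs the mean level was 21806 in myeloid-like and 36.7 in epithelial-like cells. The mean share of cells with a member UMI at 150 UMIs and without thinning was 94.6% and 98.3% in myeloid-like, 2.92% and 9.60% in lymphoid-like, 4.40% and 17.5% in endothelial-like, 1.23% and 6.88% in fibroblast-like, 11.6% and 34.6% in venous-like and 1.65% and 10.4% in capillary-like cells, and 18.7% in epithelial-like cells without thinning. Classes were compared within libraries, through the library term, in the analysis reported, and the values with no library term are those without this pairing. The female and male groups share 1 replicate number and were not compared by a test. Depth limits members at a few UMIs per class, above all Ciita.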
